A study of Arabidopsis thaliana with 9 samples.

Results

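Anthocyanins are made by a branch of flavonoid metabolism, and the 8 genes described here are its late enzymes, its carrier and its transcriptional activators, taken by locus from a table of 32833 Arabidopsis thaliana gene loci. The 5 structural genes were DFR (AT5G42800), LDOX (AT4G22880), UF3GT (AT5G54060), 5GT (AT4G14090) and TT19 (AT5G17220), and the 3 regulators were TT8 (AT4G09820), PAP1 (AT1G56650) and PAP2 (AT1G66390). All 8 loci had a row and were kept. The rule used identifiers only and no measured value, but the genes were chosen with earlier results of these data known.

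RNA sequencing covered 3 groups of 3 libraries, and every group was grown at 125 µE per square metre and second. Wild type seedlings (Col-0) and ntrc mutant seedlings were 6 days old and kept on MS medium, a mineral salt medium, under continuous light. Adult ntrc mutant plants were 8 weeks old and came from soil in short days, and each of their libraries pooled young rosette leaves of several plants. The labels name no ntrc allele. No adult wild type library was analysed here, so a genotype comparison was possible in seedlings only. A seedling sample mixes organs, and in such bulk RNA fewer cells of a type cannot be told apart from less RNA per cell.

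In the plant, DFR reduces dihydroflavonols, which FLS1 would otherwise turn into flavonols, and LDOX oxidises the product to coloured anthocyanidins. Sugar and acyl groups are then added, and TT19 helps to move the pigment to the vacuole. Transcription of these late genes depends on a complex of a MYB factor such as PAP1 or PAP2, a bHLH factor such as TT8 and the WD40 protein TTG1, and light, sugar, cold and nutrient shortage are known to raise it in seedlings and leaves. NTRC, the gene lost in the mutant, encodes a chloroplast thioredoxin reductase fused to a thioredoxin.

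Levels are given in FPKM, fragments relative to transcript length and library size, after undoing the log2(FPKM + 1) scale of the deposited values. Differences and fold changes are on that log2 scale, which understates changes of genes near 0. Sequencing depth was unknown, so the spread of 3 libraries carries the precision. Upper quartiles of the log2 values averaged 3.70 over the seedling libraries and 2.44 over the adult libraries. The stages thus differed in general level, and no test was made between them. NTRC itself stood at 130 to 175 FPKM in wild type seedlings, 16.4 to 19.6 in ntrc seedlings and 15.1 to 16.2 in adult ntrc leaves. Between 18539 and 18829 loci reached 1 FPKM in a seedling library and 15331 to 15460 in an adult one.

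All 5 structural genes were expressed in every seedling library, and their levels followed the replicate number more visibly than the genotype. DFR, the reductase at the entry of the branch, read 87.2, 13.4 and 11.6 FPKM in wild type libraries 1 to 3 and 29.9, 9.41 and 11.2 FPKM in ntrc libraries 1 to 3. Wild type library 1 was the highest of the 6, ntrc library 1 came second, and the ranges of the genotypes overlapped. LDOX, the dioxygenase that follows, read 60.9, 15.4 and 10.5 FPKM in wild type and 22.1, 9.39 and 10.6 FPKM in ntrc, with the same first and second library and again with overlap. UF3GT, which adds xylose to the glucose on the anthocyanin, read 14.2, 4.01 and 3.14 FPKM in wild type and 5.06, 1.91 and 2.41 FPKM in ntrc. Replicate 1 was again highest in both genotypes, and ntrc library 1 lay above wild type libraries 2 and 3.

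5GT, which glucosylates the pigment at another position, read 10.2, 4.09 and 3.71 FPKM in wild type and 5.39, 3.58 and 3.46 FPKM in ntrc. Among the structural genes it had the smallest range over the 6 seedling libraries, 1.33 on the log2 scale against 3.08 for DFR. TT19, the glutathione S-transferase needed for transport to the vacuole, read 22.1, 6.77 and 4.10 FPKM in wild type and 10.7, 4.50 and 4.82 FPKM in ntrc. Here too both replicate 1 libraries stood above the other 4, and ntrc library 3 lay above wild type library 3.

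**Figure D1:**
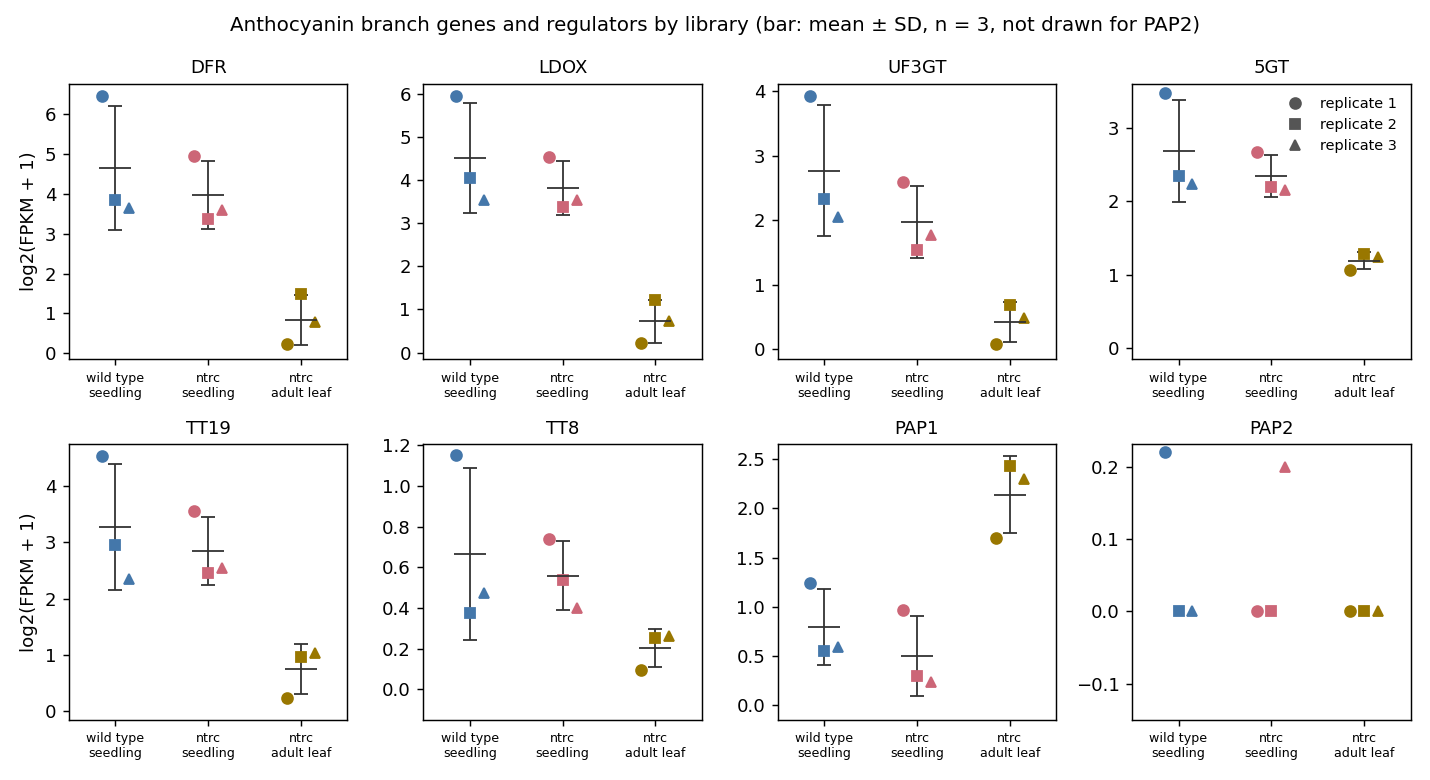
Values of the 8 genes in each of the 9 libraries as log2(FPKM + 1), with 1 panel and 1 vertical scale per gene; symbols give the replicate number and bars the mean ± SD of 3 libraries. In 7 of 8 panels both replicate 1 seedling libraries lie above the other 4 seedling libraries. PAP1 alone lies higher in adult leaves than in seedlings, on values whose general level differs between the stages.

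Levels per transcript length stood in much the same order in each seedling library. LDOX was above TT19 and TT19 above UF3GT in 6 of 6 seedling libraries, with LDOX to TT19 ratios of 2.06 to 2.76. DFR was above LDOX in 5 of 6, with ratios of 0.871 to 1.43, so these neighbours did not separate beyond their spread. UF3GT exceeded 5GT in 1 of 6 seedling libraries, wild type library 1, with ratios of 0.532 to 1.39, and this pair did not separate either. The 5 structural genes added up to 195, 43.8 and 33.1 FPKM in wild type libraries 1 to 3 and 73.2, 28.8 and 32.5 FPKM in ntrc libraries 1 to 3.

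Regions just upstream of the structural genes are shown because these genes varied together across the seedling libraries. Each sequence is the 250 bases before the gene's start in the RefSeq annotation of TAIR10.1, read 5′ to 3′ on the gene's strand. The authors' build is named as TAIR10, their table holds no coordinates, and none of theirs was converted. Capitals mark ACGT, the core that many bZIP and bHLH factors such as HY5 and the PIFs bind, its longer form CACGTG (the G-box), and the MYB-bound AC elements, which read ACCTACC in the first form, ACCAACC in the second form and ACCTAAC in the third form, on either strand.
DFR (chr5:17166033-17166282, minus strand): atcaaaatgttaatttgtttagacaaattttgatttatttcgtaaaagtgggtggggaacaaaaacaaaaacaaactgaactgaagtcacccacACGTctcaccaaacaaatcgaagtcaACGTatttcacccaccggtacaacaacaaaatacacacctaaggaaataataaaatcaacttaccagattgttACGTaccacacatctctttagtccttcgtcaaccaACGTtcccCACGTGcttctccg
LDOX (chr4:12006210-12006459, minus strand): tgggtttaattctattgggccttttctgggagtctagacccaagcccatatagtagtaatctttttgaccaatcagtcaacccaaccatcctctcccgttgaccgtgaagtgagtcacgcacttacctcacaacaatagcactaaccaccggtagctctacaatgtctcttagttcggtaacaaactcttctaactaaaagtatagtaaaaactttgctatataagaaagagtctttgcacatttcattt
UF3GT (chr5:21938397-21938646, minus strand): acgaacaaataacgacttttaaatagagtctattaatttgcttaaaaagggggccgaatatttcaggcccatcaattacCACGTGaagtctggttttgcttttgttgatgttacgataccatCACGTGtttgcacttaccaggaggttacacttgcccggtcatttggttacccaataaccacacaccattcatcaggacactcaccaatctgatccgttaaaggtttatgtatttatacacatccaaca
5GT (chr4:8123836-8124085, minus strand): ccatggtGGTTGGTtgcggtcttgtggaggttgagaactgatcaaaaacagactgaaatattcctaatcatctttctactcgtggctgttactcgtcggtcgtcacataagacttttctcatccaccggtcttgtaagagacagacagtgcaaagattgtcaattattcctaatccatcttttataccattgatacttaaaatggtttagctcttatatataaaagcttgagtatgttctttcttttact
TT19 (chr5:5658166-5658415, plus strand): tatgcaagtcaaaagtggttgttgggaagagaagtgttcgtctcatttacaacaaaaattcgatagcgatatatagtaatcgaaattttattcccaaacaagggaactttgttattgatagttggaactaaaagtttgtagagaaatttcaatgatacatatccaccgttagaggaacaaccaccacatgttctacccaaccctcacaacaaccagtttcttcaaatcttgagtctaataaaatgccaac

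None of the motifs searched for was found in all 5 windows, and other letters that the windows may share were not looked for. A G-box was found once in the DFR window, 14 bases before the start, and at 171 and 128 bases before the start of UF3GT. Among all 8 genes 3 windows held one, the third being that of PAP2, against 6.49% of the 27443 windows of nuclear protein-coding genes. The DFR window had 5 matches to ACGT, of which 1 lies inside the G-box, and 4 of the 8 windows had at least 1, against 44.1% of all windows. AC elements were found in the windows of 5GT and TT8, against 6.12% of all. The bHLH motif CANNTG, which includes the G-box and is not in capitals elsewhere, was in 5 of 8 windows, against 55.3%. LDOX and PAP1 had none of these letters in their windows. A match describes letters and shows no binding.

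The regulators were far lower than their targets in seedlings. TT8, the bHLH partner, read 1.22, 0.298 and 0.388 FPKM in wild type libraries 1 to 3 and 0.668, 0.453 and 0.320 FPKM in ntrc. PAP1, the MYB factor whose gain of function turns plants purple, read 1.36, 0.461 and 0.505 FPKM in wild type and 0.953, 0.230 and 0.179 FPKM in ntrc. For both genes the 2 replicate 1 libraries were the highest of the 6 and the genotypes overlapped.

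PAP2, a close relative of PAP1, was listed at 0 in 4 of the 6 seedling libraries and at 0.165 FPKM in wild type library 1 and 0.148 FPKM in ntrc library 3. Its relatives MYB113 (AT1G66370) and MYB114 (AT1G66380) were listed at 0 in all 6. PAP1, PAP2, MYB113 and MYB114 resemble each other in sequence, and the authors' counting may have split reads between them, so these low values are uncertain. Only wild type library 1 reached 1 FPKM for TT8 and PAP1, so these 2 genes and PAP2 missed the filter of at least 1 FPKM in 3 seedling libraries and 5 of the 8 genes entered the genotype test.

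The genotype comparison asked whether loss of NTRC changed these genes in seedlings. None of the 5 tested genes passed. Genes were tested with limma, a linear model fitted here to 18818 genes, with a call at an adjusted p (Benjamini-Hochberg) below 0.05. Among all tested genes 4 fell (0.0213%) and 1 rose (0.00531%), and 0 of the 5 had an unadjusted p below 0.05, against 943 of all tested genes (5.01%). UF3GT had the largest difference of the 5, with 2.77 ± 1.01 in wild type and 1.97 ± 0.56 in ntrc (mean ± SD of log2 values, n = 3). Its log2 fold change was -0.80 (SE 0.56, 95% interval -2.19 to 0.60, adjusted p = 0.947, limma with Benjamini-Hochberg).

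DFR stood at 4.66 ± 1.57 in wild type and 3.98 ± 0.85 in ntrc on the log2 scale, a fold change of -0.68 (SE 0.86, 95% interval -2.82 to 1.46). LDOX stood at 4.51 ± 1.28 and 3.82 ± 0.62, a fold change of -0.69 (SE 0.69, 95% interval -2.40 to 1.02). TT19 and 5GT had log2 fold changes of -0.43 (SE 0.62) and -0.35 (SE 0.35). The adjusted p of these 4 genes lay between 0.955 and 0.970 (limma, Benjamini-Hochberg). These intervals reach from a large decrease to an increase for DFR, LDOX and TT19, so neither a change nor its absence was shown.

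All 5 fold changes were negative, with a median of -0.68, against 48.8% of genes below 0 and a median of 0.0037 over all genes tested. Without wild type library 1 the median was 0.051 and 4 of the 5 signs turned, to 0.22 for DFR, 0.032 for LDOX, 0.051 for 5GT and 0.20 for TT19, while UF3GT stood at -0.22. That fit kept ntrc library 1, the highest ntrc library for these genes. Without both replicate 1 libraries all 5 stayed below 0, at -0.26 for DFR, -0.33 for LDOX, -0.53 for UF3GT, -0.12 for 5GT and -0.15 for TT19, and none passed.

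Replicate numbers were treated as pairing the seedling libraries, as deviations from the group means were alike within a number over all genes. Within pair 1 all 8 genes were lower in ntrc, within pair 2, 6 genes were, and within pair 3, 5 genes were. PAP2 was lower in pair 1 from 0.165 FPKM against 0, and was at 0 in both libraries of pair 2. Shares of all genes within a single pair were not counted. The median difference of the 5 tested genes was -1.32 in pair 1, -0.50 in pair 2 and -0.049 in pair 3. DFR differed by -1.51, -0.47 and -0.049 in pairs 1 to 3, and TT19 by -0.97, -0.50 and 0.19. UF3GT was lower in each pair, by -1.32, -0.78 and -0.28. PAP1 was also lower in each pair, by similar amounts of -0.27, -0.25 and -0.35. Among the tested genes 3 of 5 (DFR, UF3GT and 5GT) were lower in 3 of 3 pairs, against 15.2% of all genes, and since the 5 vary together they are not separate observations. In no gene of the 8 were all ntrc libraries below all wild type libraries, against 4.37% of all genes.

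In the blocked fit, which has the replicate number as a further term, 43 genes fell (0.229%) and 30 rose (0.159%) among all tested, and again none of the 5. UF3GT came nearest, with an SE of 0.20, a 95% interval of -1.29 to -0.31 and an unadjusted p of 0.00747, and its adjusted p was 0.190 (limma, Benjamini-Hochberg). It was the only 1 of the 5 with an unadjusted p below 0.05, a threshold that 2185 of all tested genes (11.6%) met in this fit. The other 4 had adjusted p between 0.472 and 0.570, and their 95% intervals included 0, as the -1.62 to 0.27 of DFR and the -0.73 to 0.032 of 5GT did. With the filter on low values removed and the block kept, PAP1 had a log2 fold change of -0.29 (SE 0.089, 95% interval -0.52 to -0.065). Its unadjusted p was 0.0210 and its adjusted p 0.383 (limma, Benjamini-Hochberg). TT8 had -0.11 and an adjusted p of 0.834 in that fit (limma, Benjamini-Hochberg).

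**Figure D2:**
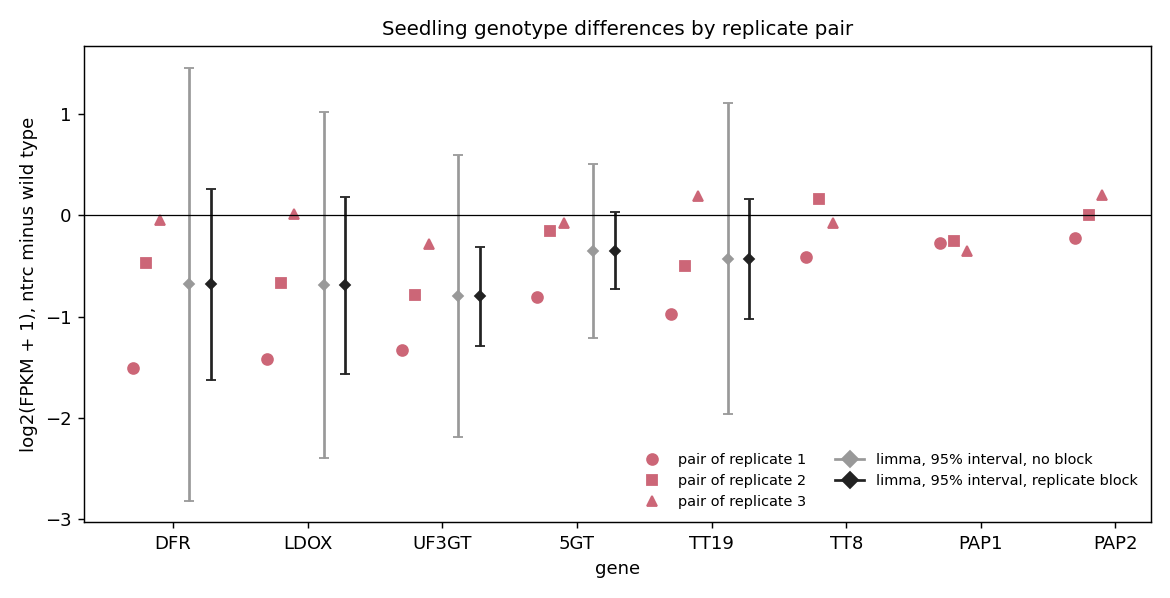
Difference in log2(FPKM + 1), ntrc minus wild type seedling, within each replicate pair (symbols) for the 8 genes, with the limma estimate and its 95% interval without a block (grey) and with the replicate block (black) for the 5 tested genes. Pair 1 gives the lowest value of the 3 pairs for every gene but PAP1, and among the 5 tested genes the blocked interval excludes 0 for UF3GT alone.

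For each of the 5 structural genes the excess of replicate 1 over the other replicates was larger in size than the fold change between genotypes, in a contrast chosen after the values were seen and not tested. DFR in library 1 was 6.96 times the mean of libraries 2 and 3 in wild type and 2.91 times in ntrc. LDOX was 4.69 and 2.21 times that mean, TT19 4.06 and 2.30 times, UF3GT 3.96 and 2.34 times, and 5GT 2.61 and 1.53 times. TT8 and PAP1 showed it too, at 3.56 and 1.73 times for TT8 and 2.82 and 4.66 times for PAP1, all from levels below 1.4 FPKM. Both replicate 1 libraries lay above the other 4 in 7 of the 8 genes and in 5 of the 5 tested, against 11.1% of all genes tested.

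On the log2 scale the excess of library 1 was larger in wild type than in ntrc for 7 of the 8 genes, for example 2.71 against 1.46 for DFR and 2.17 against 1.07 for LDOX. The share of all genes was not counted. PAP2 is among these 7 from single readings, 0.165 FPKM in wild type library 1 and 0.148 FPKM in ntrc library 3. PAP1 was the exception, at 0.67 in wild type and 0.70 in ntrc. That contrast rests on 1 library of each genotype and was not tested. No label says what the replicate 1 samples shared, and its part in the result was not tested.

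The enzymes that feed the branch had a smaller excess. In the list of 13 general phenylpropanoid and early flavonoid enzymes the median excess of library 1 was 0.37 in wild type and 0.66 in ntrc, against 1.87 and 1.05 for the 5 structural genes and -0.039 and -0.018 over all tested genes. Both replicate 1 libraries were on top in 10 of these 13. CHS (AT5G13930), chalcone synthase at the entry of the flavonoid pathway, had an excess of 0.52 in wild type and 0.74 in ntrc. Wild type thus had the larger median excess in the late genes and ntrc in the early ones, again from 1 library each and without a test.

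**Figure D3:**
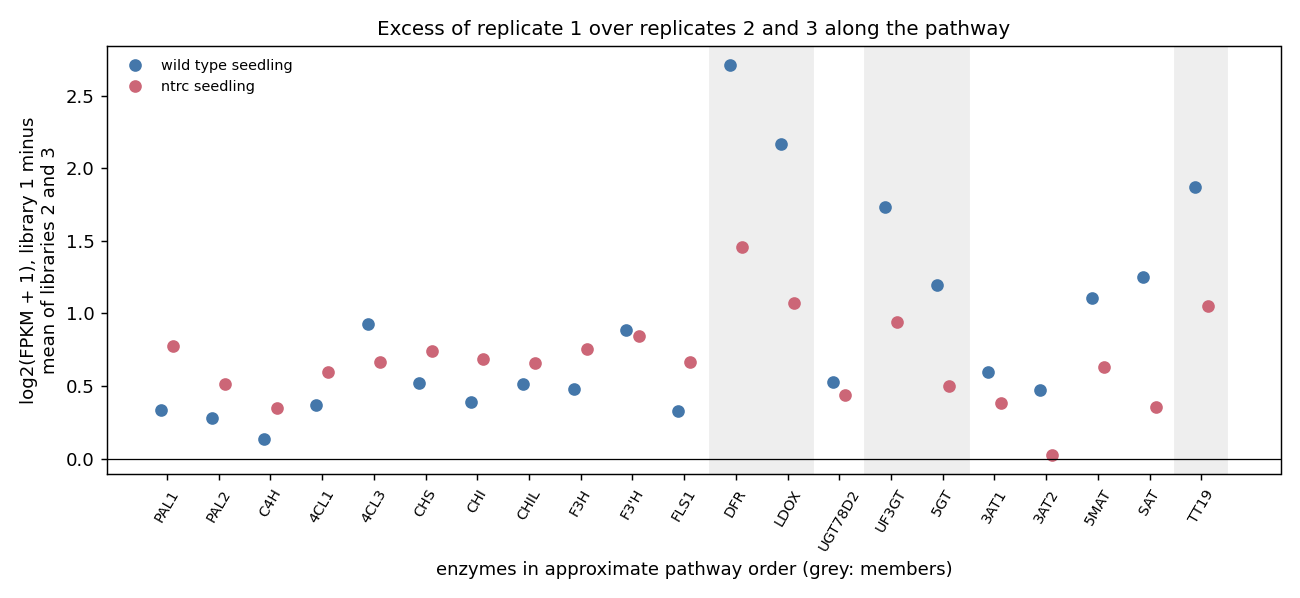
Difference in log2(FPKM + 1) between library 1 and the mean of libraries 2 and 3 within wild type (blue) and ntrc (red) seedlings, for selected enzymes in approximate pathway order with the 5 structural genes on grey. The early enzymes PAL3, PAL4 and 4CL2 and the decoration enzymes UGT84A2 and BGLU10 are not drawn. DFR reaches 2.71 in wild type, and CHS and the other early enzymes drawn stay below 1 in both genotypes.

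Genes of the wider pathway were counted in the same fit. None of 67 tested genes of the 12 other lists passed without a block or with it, and 5 and 27 of them had an unadjusted p below 0.05 (limma), beside the 5.01% and 11.6% of all tested genes. Of the 13 phenylpropanoid and early flavonoid enzymes 11 were lower in ntrc, with a median of -0.38 (0 passed). These 11 were lower in 3 of 3 pairs, against 15.2% of all genes. In the blocked fit 12 of the 13 had an unadjusted p below 0.05 (limma), PAL3 and PAL4 among them as higher in ntrc. Genes that vary together are not separate observations. 4CL2 (AT3G21240), a ligase that activates hydroxycinnamic acids, had a log2 fold change of -0.73 (SE 0.28), and CHS had -0.60 (SE 0.26), with blocked adjusted p of 0.164 and 0.0952 (limma, Benjamini-Hochberg). CHIL (AT5G05270), a chalcone isomerase-like protein, had -0.55 (SE 0.23). Its blocked adjusted p of 0.0835 was the lowest of the listed genes (limma, Benjamini-Hochberg). In the blocked fit without replicate 1, 4CL2 alone among the listed genes fell, by 0.98 (adjusted p = 0.0372, limma with Benjamini-Hochberg).

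Within pairs these enzymes had medians of -0.18, -0.48 and -0.27, so pair 1 was their smallest difference while it was the largest for the anthocyanin branch. The flavonol list, which competes for the same substrate, had 3 of 4 tested genes lower, with a median of -0.26 and -0.37 for its activator MYB12 (AT2G47460, SE 0.13). UGT89C1 (AT1G06000), a flavonol rhamnosyltransferase, was listed at 0 in wild type library 1 and at 3.61 to 4.67 in the other 5 seedling libraries on the log2 scale. Its fold change is therefore not given, but that count and median include it, as the 1 gene that was higher. MYB11 and MYB111, the other flavonol activators, missed the filter, and UGT78D3 was listed at 0 in all seedling libraries.

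The other decoration enzymes resembled the branch in direction with smaller values. All 7 were lower in ntrc, with a median of -0.20, and none passed. 5MAT (AT3G29590), a malonyltransferase, had -0.34 (SE 0.36) and BGLU10 (AT4G27830), a glucosyltransferase acting on the acylated pigment, -0.33 (SE 0.20). Both replicate 1 libraries were on top in 5 of the 7.

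None of the partners and antagonists of the MYB complex passed in the fits with all 6 libraries. TTG1 (AT5G24520), its WD40 protein, had a log2 fold change of 0.11 (SE 0.081), and the bHLH factors GL3 (AT5G41315) and EGL3 (AT1G63650) had -0.19 (SE 0.13) and -0.10 (SE 0.13). None of these 3 had both replicate 1 libraries on top. Of 9 repressors 6 were higher and 3 lower in ntrc, with a median of 0.12. LBD39 (AT4G37540) and LBD38 (AT3G49940), nitrate-induced repressors of PAP1 and PAP2, had 0.50 (SE 0.26) and 0.31 (SE 0.15), with blocked adjusted p of 0.0870 and 0.357 (limma, Benjamini-Hochberg). On the log2 scale LBD39 read 4.70 in wild type library 1 and 5.36 to 5.91 in the other 5 seedling libraries. The repressor MYB4 (AT4G38620) went the other way, at 4.07 in that library and 3.35 to 3.93 in the other 5. A link of either gene to the branch was not tested. Of 6 light regulators 3 were higher and 3 lower. PIF4 (AT2G43010) had 0.41 (SE 0.20) and the blue light receptor CRY1 (AT4G08920) 0.18 (SE 0.11). The counts by direction of these lists were the same under both other scalings of the libraries.

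Conditions known to raise anthocyanin genes were represented by 2 short lists. Of the genes induced by high light or sugar, ELIP1 (AT3G22840) and ELIP2 (AT4G14690), early light-induced proteins of the thylakoid, had log2 fold changes of -0.47 (SE 0.67) and -0.81 (SE 0.65). All 3 tested members had both replicate 1 libraries on top, and the median excess of library 1 was 0.91 in wild type and 1.84 in ntrc. Of 4 tested phosphate starvation genes all were lower in ntrc, with a median of -0.27, -0.41 (SE 0.47) for the phosphatase PS2 (AT1G73010) and -0.31 (SE 0.11) for SQD2 (AT5G01220), an enzyme of sulfolipid synthesis. Both replicate 1 libraries were on top in 2 of these 4. None of these genes passed in either fit.

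Markers of other tissues were set beside these values. Plastid-encoded genes added up to 309557 to 358055 FPKM in adult libraries and 1305 to 3647 FPKM in seedling ones. The marker sums of seedlings and adult leaves are therefore not comparable in level. Among seedlings the lowest plastid sum, 1305 FPKM, was that of wild type library 1, against 2318 to 3647 FPKM in the others. Its part in the result was not tested. BAN (AT1G61720), the reductase that directs the shared precursor to seed coat proanthocyanidins, and TT16 (AT5G23260) were listed at 0 in all 9 libraries, and TT12 and TT1 in all seedling libraries. The 8 seed coat genes added up to 3.52 to 5.37 FPKM in wild type seedlings, 3.25 to 4.14 in ntrc seedlings and 0.579 to 0.972 in adult leaves. TTG2 (AT2G37260), which also acts in trichomes, was the 1 tested member, with a log2 fold change of -0.046 and both replicate 1 libraries on top. DFR, LDOX, TT19 and TT8 serve that seed coat pathway too.

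The 10 root markers added up to 81.2 to 139 FPKM in wild type seedlings, with the lowest value in library 1, and to 96.4 to 114 in ntrc seedlings. In adult leaves they added up to 7.36 to 7.93 FPKM, and PLT1, PLT2, RHD6, EXP7 and PHT1;1 were listed at 0 there. Of 9 tested root markers 6 were higher, with a median of 0.063, 0.22 for CASP1 (AT2G36100) and -0.20 for WER (AT5G14750). The 4 shoot epidermis markers, from the layer in which seedlings store much of the pigment, added up to 387 to 445 FPKM in wild type seedlings, 388 to 462 in ntrc seedlings and 152 to 180 in adult leaves. Their largest log2 fold changes were 0.20 for PDF1 (AT2G42840) and 0.19 for ATML1 (AT4G21750). The 4 green leaf markers added up to 22104 to 31287 FPKM in wild type seedlings, 23415 to 30627 in ntrc seedlings and 11838 to 12351 in adult leaves, with the lowest value of each seedling genotype in library 1. Their largest log2 fold changes were 0.35 for LHCB1.3 (AT1G29930), whose near-identical copies make its value uncertain, and -0.28 for GLDP1 (AT4G33010). No gene of these 3 lists had both replicate 1 libraries on top, and their part in the result was not tested.

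The genes whose profile over the 6 seedling libraries came nearest to that of the 5 structural genes were not pathway enzymes. Likeness was the root mean square difference on the log2 scale between profiles centred on their own means, and the mean profile of the structural genes, at 1.58 in wild type library 1 and 0.38 in ntrc library 1 with the other 4 between -0.70 and -0.18, itself had a root mean square of 0.79. The 10 nearest of all tested genes were AT1G72910 (0.150), DIP2 (AT5G03210, 0.166), AT2G35290 (0.191), OPCL1 (AT1G20510, 0.192), CBP60G (AT5G26920, 0.194), AT5G52050 (0.197), AT1G65486 (0.203), WRKY53 (AT4G23810, 0.204), WRKY18 (AT4G31800, 0.204) and DREB26 (AT1G21910, 0.206). OPCL1 acts in jasmonate synthesis, CBP60G promotes salicylic acid synthesis, and WRKY53 and WRKY18 are stress and defence transcription factors. Others carry different names. AT2G35290 is SAUR79, a small auxin upregulated RNA, AT5G52050 is DTX50, a detoxification efflux carrier, and DREB26 is a dehydration response element-binding protein. Whether the 10 share a function was not tested.

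Among listed genes PS2 ranked 34 and ELIP1 ranked 87 in this order. The decoration enzyme 5MAT came at rank 112, with a difference of 0.346, and CHS at rank 349, with 0.498. The structural genes themselves lay between 0.135 (LDOX) and 0.416 (5GT) from the mean of the other 4. The profile is dominated by wild type library 1, so likeness here mostly says that a gene was high in that library and, less so, in ntrc library 1.

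In adult ntrc leaves the order of the genes was different. PAP1 was the highest of the 8, at 2.25, 4.38 and 3.92 FPKM in libraries 1 to 3, and the downstream genes were low. DFR read 0.173, 1.78 and 0.726 FPKM, LDOX 0.162, 1.32 and 0.673 FPKM, and TT19 0.180, 0.964 and 1.04 FPKM. Adult library 1 was the lowest for PAP1 and these 3 genes, as it was for 5GT, UF3GT and TT8.

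5GT read 1.08, 1.42 and 1.36 FPKM in adult leaves, and UF3GT read 0.0624, 0.613 and 0.402 FPKM. TT8 stood at 0.0686, 0.192 and 0.201 FPKM, and PAP2 was listed at 0 in all 3 libraries. The ranges of PAP1 and 5GT did not overlap in adult leaves, and those of DFR, LDOX, TT19 and UF3GT overlapped. The 8 genes added up to 7.65 ± 3.39 FPKM in adult ntrc leaves (mean ± SD, n = 3), and to 6.15 to 9.49 FPKM as a mean of any 2 of the libraries.

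Ratios within a library do not depend on its scaling. PAP1 was 13.0, 2.46 and 5.40 times as high as DFR in adult ntrc libraries 1 to 3, and 0.0156 to 0.0435 times as high in the 6 seedling libraries. The rank of PAP1 within its own library also differed, with 63.3% to 74.8% of all loci listed lower in adult libraries and 34.1% to 45.1% in seedling libraries. DFR went the other way, with 38.9% to 59.9% in adult and 70.4% to 96.5% in seedling libraries, and TT8 overlapped at 33.8% to 40.6% and 36.4% to 44.2%. No test was made, since stage, tissue, medium, day length and library kit (ribosomal RNA depletion of total RNA for adults, a stranded mRNA kit for seedlings) all differ between these libraries and cannot be told apart.

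**Figure D4:**
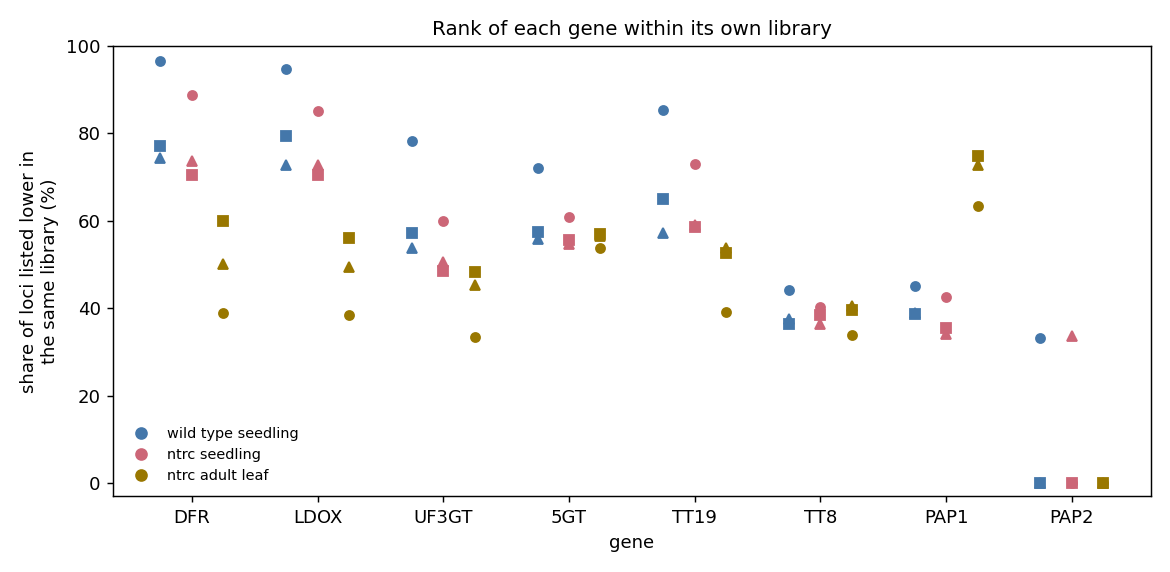
Share of all 32833 loci listed at a lower value in the same library, in percent, for the 8 genes in wild type seedlings, ntrc seedlings and adult ntrc leaves (circles, squares and triangles are replicates 1, 2 and 3). PAP1 lies above 63% in adult leaves and below 46% in seedlings, whereas DFR, LDOX and TT19 rank lower in every adult library than in any seedling library.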

How the data were processed

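RNA sequencing gave 1 deposited table of gene loci by 9 libraries. Tools named in the submitters' processing notes are FastQC, HISAT2 and StringTie, with the genome build TAIR10 and no version or setting. The authors deposited log2 values, read here as log2(FPKM + 1) because the table is named as FPKM and the values start at 0; base and pseudocount are not stated, nor is counting by strand. Libraries were taken as biological replicates, as labelled. Genotypes were compared in seedlings with limma 3.58.1 in R 4.3.3 (mean trend, robust, two-sided) on 18818 genes that reached 1 FPKM in 3 or more of the 6 libraries, tested on simulated data. Deviations from group means correlated by 0.506, 0.406 and 0.278 within replicate numbers 1, 2 and 3, so numbers were taken to pair libraries, a pairing that no label states, and a fit with the number as a block stands beside the fit without. Members and the 12 other lists (82 genes, all matched to TAIR10.1 RefSeq loci) were chosen with earlier results of these data known. Named from each list were the 2 tested genes with the largest absolute fold change, genes that passed, genes at 0 in all libraries and the 10 nearest profiles; others named were chosen after their values were seen. Alternatives were a pseudocount of 0.1, no filter, quantile or median ratio scaling, and leaving out libraries or pairs.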

Additional observations from a re-analysis of the deposited data

How the results depend on the processing

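No branch gene passed under any alternative run. Their median log2 fold change lay between -1.15 and 0.051 without 1 seedling library and between -0.99 and -0.26 without both libraries of a replicate number. Without wild type library 1 the sign turned for DFR, LDOX, 5GT and TT19, and without both replicate 1 libraries it did not. Over the fits without 1 library their values ran from -1.18 to 0.22 for DFR, -1.18 to 0.032 for LDOX, -0.57 to 0.051 for 5GT and -0.89 to 0.20 for TT19. The other scalings and the pseudocount gave medians of -0.70 to -0.68. The count of all genes past the threshold, 5 without a block, was 73 with the replicate block, 2 with a pseudocount of 0.1, 2 to 24 without 1 library (24 without ntrc library 1), 72, 29 and 71 with the block and without pair 1, 2 or 3, and, in fits added after the data were seen, 1 to 7 without a pair and without a block and 4 with the block and no filter. Of the listed genes 1, 4CL2, passed with the block and without pair 1, and 0 otherwise. The block changed no call of a branch gene. Unknown depth and 3 libraries a group limit what could be detected, and TT8, PAP1 and PAP2 were too low for the filter.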
